A study of Mus musculus with 39 samples.

Results

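Pachytene and later spermatocytes were studied among the droplet single-cell profiles of mouse testis. They numbered 5260 of 18998 cells, of which 2944 came from the control library and 2316 from the conditional knockout (cKO) library. The cells were chosen by measured values of these same libraries. Barcodes with at least 3000 unique molecular identifiers (UMIs) and at most 20% mitochondrial UMIs entered, unless Stra8, Prdm9, Dmrt1, Cyp17a1 and Sox9 together had 3 UMIs or more. A cell was a member when the mean z-score of Piwil1, Pou5f2, Ccna1 and Hspa2 exceeded those of a round spermatid list (Acrv1, Spaca1, Spaca7, Catsper3) and an elongating spermatid list (Prm1, Prm2, Tnp2, Oaz3). Z-scores were taken over the cells of both libraries from the log of counts per 10000. Cells in which one of the other lists was highest are called the round spermatid group (4612 cells) and the elongating spermatid group (9126 cells).

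The study examined loss of Kdm6a, the X-linked gene for an H3K27 demethylase also known as UTX, in the male germ line. The control library came from whole testis of Kdm6a fl/y; Cre- mice and the cKO library from whole testis of Kdm6a fl/y; Ddx4-Cre+ mice. Both genotypes carry the floxed allele, and Ddx4-Cre is active in germ cells, so somatic cells of the cKO testis keep Kdm6a. There was 1 library per genotype, and age and the number of animals per library are not given in the labels. No difference between the libraries therefore has a replicate check, and all intervals are 95% intervals of counting error only.

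Pachytene is the longest stage of meiotic prophase: homologous chromosomes are held together by the synaptonemal complex while crossovers form, and the X and Y are silenced inside a sex body. The transcription factor A-MYB, encoded by Mybl1, switches on a broad program in these cells that includes precursors of pachytene piRNAs and their protein partners such as PIWIL1. Many messages that sperm need are already made at this stage and stored, and the cells then pass through diplotene into the meiotic divisions.

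The libraries held 229882646 UMIs in the control and 172368722 in the cKO. Spermatocytes made up 27.3% of filtered cells in the control (95% exact binomial interval 26.4 to 28.1) and 28.2% in the cKO (27.2 to 29.2). With 1 library per genotype, no comparison of genotypes is read from these intervals. They were the deepest of the 3 groups by median, with 14322.5 UMIs and 4372 genes per cell in the control and 12696 UMIs and 4002 genes in the cKO. Mitochondrial UMIs had a median of 2.39% and 2.72% in spermatocytes, against 0.35% and 0.255% in the round spermatid group. Across libraries 25 filtered barcodes had the same sequence, and 3 of these were spermatocytes in both.

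The label was checked against the markers. In the spermatocytes, the testis chaperone gene Hspa2 stood at 1711 and 1489.7 CPM (UMIs scaled to a total of 1000000) in control and cKO, Piwil1 at 569 and 611, the POU factor gene Pou5f2 at 142 and 133, and Ccna1, the meiotic cyclin A gene, at 143 and 161. These 4 genes chose the cells, so their levels describe the rule. Near the boundary, 136 control and 97 cKO members led by a margin under 0.1, and 127 and 89 non-members missed by as little. Just inside, the median spermatocyte score was 0.122 and 0.186, and just outside it was 0.0915 and -0.0193. In 247 control members (8.39%) and 183 cKO members (7.90%) the spermatocyte score was 0 or less, and these cells were members only because the spermatid scores were lower still. Their median depth was 4597 and 4127 UMIs, against 16230 and 13930 in the other members.

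These low-scoring members held several sets of transcripts. Genes chosen after their values were seen included Clu, at 634 and 943 CPM in control and cKO against 28.9 and 38.2 in the other members, and Sparc, at 297 and 527 against 10.7 and 16.7. Both are expressed by Sertoli cells, the somatic nurse cells of the tubule. Genes of early prophase were also high there: Sycp3, an axis protein of the synaptonemal complex, stood at 1918 and 1881 against 639 and 634, and the recombinase gene Dmc1 at 96.7 and 50.7 against 5.19 and 4.27. In these cells the data went against the label, and values without them are given for the X-linked share and for Kdm6a.

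Markers of other cell types were low over all members but were not at 0. The rule had left out barcodes with 3 UMIs or more of Stra8, Prdm9, Dmrt1, Cyp17a1 and Sox9 together. Low sums may thus in part describe the rule. The 8 Sertoli markers summed to 90.3 and 112 CPM in spermatocytes, 98.1 and 103 in the round spermatid group and 165 and 182 in near-empty barcodes under 100 UMIs, which hold free RNA. The 9 spermatogonial markers summed to 26.1 and 33.1 CPM, mostly Uchl1 at 16.3 and 21.6. Sums of 6 Leydig markers (5.63 and 7.85 CPM), 6 macrophage markers (9.40 and 4.03) and 6 endothelial and peritubular markers (4.52 and 7.04) were lower in the members than in near-empty barcodes. No marker in these lists had 0 UMIs in the members. Markers of meiotic entry to zygotene summed to 913 and 1025 CPM, of which 628 and 808 were Tex101, a germ-cell surface protein gene, and 236 and 170.0 were Meioc. Both were also high in members with a spermatocyte score above 0, with Tex101 at 620 and 806 CPM and Meioc at 233 and 169. Dmc1, another marker of this list, stood at 7.53 and 5.39 CPM over all members. Other genes of the list were concentrated in the low-scoring members. Meiob stood at 161 and 143 CPM there against 21.5 and 22.7 in the other members, and Prss50 at 155 and 153 against 8.81 and 8.57. Whether cells of earlier prophase were admitted was not tested.

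The most abundant transcript of the spermatocytes was Ldhc, the testis lactate dehydrogenase, with 7549 CPM in the control and 8228 in the cKO. The polyubiquitin gene Ubb stood at 6165 and 6596. Gm42418, which overlaps ribosomal RNA sequence and is hard to count, stood at 6961 and 5769. Hsp90aa1, a chaperone, stood at 5346 and 5374, and Meig1, needed for making the sperm tail, at 5021 and 5568. The radial spoke gene Rsph1 had 3895 and 3866 CPM in spermatocytes but 986 and 1012 in the round spermatid group. Ldhc, Meig1, the fatty acid binding protein gene Fabp9 and the glutathione transferase gene Gstm5 were by contrast within 1.5-fold of their round spermatid levels in both libraries. Lyar, Rbakdn, Ropn1l and Gkap1 completed the 12, between 3100.2 and 4472 CPM in the control.

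Genes that set spermatocytes apart from both spermatid groups were led by Mllt10, which encodes a cofactor of the DOT1L histone methyltransferase. It had 845 CPM in control spermatocytes and 709 in the cKO, against 48.0 and 37.6 in the round spermatid group and 45.7 and 35.9 in the elongating group. The calmodulin gene Calm2 stood at 2106 and 2126 against 153 and 143 in the round spermatid group. Mphosph8, a reader of H3K9 methylation, had 621 and 633 against 47.4 and 41.0. Cks2, a partner of cyclin-dependent kinases that meiosis needs, had 516 and 544 against 38.3 and 34.6. The glucose transporter gene Slc2a3 stood at 647 and 583 against 64.5 and 51.5, and the ubiquitin-conjugating enzyme gene Ube2t at 228 and 238 against 16.3 and 16.5. The other 9 of the leading 15 were Gm50166, 4930581F22Rik, Lypd10, Gm21269, Tchp, Mgll, Pcbp1, Arl6ip1 and Rnf6, each at least 3.1 log2 units above both spermatid groups with 10 CPM added.

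For 11 genes the promoter window in the RefSeq table of GRCm38.p6, the build also called mm10, is shown, since the share of windows with MYB letters, given after them, differed between gene sets. Each runs from 250 bases before to 50 bases after the annotated start and reads along the gene's strand. Capitals mark the core letters of MYB binding motifs, which are CAACTG or its variant TAACTG and likewise CAACGG or its variant TAACGG. Capitals also mark TGACGT, the start of the cAMP response element, and all were searched on both strands. The windows are Hspa2 at chr12:76404120-76404419 (plus strand), Piwil1 at chr5:128735996-128736295 (plus strand), Pou5f2 at chr13:78024652-78024951 (plus strand) and Ccna1 at chr3:55055006-55055305 (minus strand), which are the genes of the rule. Of genes high over spermatids they are Cks2 at chr13:51644982-51645281 (plus strand), Ube2t at chr1:134962315-134962614 (plus strand), Lypd10 at chr7:24709009-24709308 (plus strand) and Tex101 at chr7:24672001-24672300 (minus strand). Ldhc at chr7:46861013-46861312 (plus strand) is the upstream of 2 windows of the most abundant gene. Akap4 at chrX:7067265-7067564 (plus strand) and Tsga8 at chrX:83487875-83488174 (minus strand) are X-linked genes at higher levels in spermatids.
Hspa2: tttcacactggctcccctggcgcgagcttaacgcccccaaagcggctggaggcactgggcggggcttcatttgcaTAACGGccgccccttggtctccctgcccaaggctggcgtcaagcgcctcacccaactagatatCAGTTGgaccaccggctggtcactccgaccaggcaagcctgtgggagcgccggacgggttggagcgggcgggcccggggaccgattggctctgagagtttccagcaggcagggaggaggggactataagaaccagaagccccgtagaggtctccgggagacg
Piwil1: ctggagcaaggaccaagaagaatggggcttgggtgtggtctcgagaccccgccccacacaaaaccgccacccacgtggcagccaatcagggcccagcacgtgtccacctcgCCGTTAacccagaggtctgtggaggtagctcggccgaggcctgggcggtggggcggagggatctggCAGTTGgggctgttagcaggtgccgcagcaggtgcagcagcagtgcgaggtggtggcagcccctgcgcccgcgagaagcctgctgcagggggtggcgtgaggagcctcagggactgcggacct
Pou5f2: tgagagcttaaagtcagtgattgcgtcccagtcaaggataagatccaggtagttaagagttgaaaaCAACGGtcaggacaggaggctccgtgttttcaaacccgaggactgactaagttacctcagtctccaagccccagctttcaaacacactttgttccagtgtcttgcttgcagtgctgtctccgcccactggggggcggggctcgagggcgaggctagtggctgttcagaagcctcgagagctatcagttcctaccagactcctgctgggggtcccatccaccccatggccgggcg
Ccna1: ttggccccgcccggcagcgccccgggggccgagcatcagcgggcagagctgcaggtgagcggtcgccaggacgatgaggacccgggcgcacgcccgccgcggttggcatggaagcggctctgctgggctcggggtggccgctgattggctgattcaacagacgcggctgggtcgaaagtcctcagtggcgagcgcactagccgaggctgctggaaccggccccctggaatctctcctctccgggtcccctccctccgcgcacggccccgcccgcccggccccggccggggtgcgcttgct
Cks2: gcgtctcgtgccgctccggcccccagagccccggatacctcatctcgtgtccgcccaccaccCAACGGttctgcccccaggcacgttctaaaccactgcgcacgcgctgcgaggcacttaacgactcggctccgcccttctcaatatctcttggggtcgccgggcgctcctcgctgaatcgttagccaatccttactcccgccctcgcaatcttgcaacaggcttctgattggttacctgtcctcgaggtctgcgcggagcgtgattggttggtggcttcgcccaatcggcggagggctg
Ube2t: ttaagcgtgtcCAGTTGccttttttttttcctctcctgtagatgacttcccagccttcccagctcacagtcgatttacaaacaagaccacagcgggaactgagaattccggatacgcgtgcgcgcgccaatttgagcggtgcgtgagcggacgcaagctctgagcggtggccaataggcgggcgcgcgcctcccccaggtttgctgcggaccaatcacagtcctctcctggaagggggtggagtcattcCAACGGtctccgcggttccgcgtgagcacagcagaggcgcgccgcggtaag
Lypd10: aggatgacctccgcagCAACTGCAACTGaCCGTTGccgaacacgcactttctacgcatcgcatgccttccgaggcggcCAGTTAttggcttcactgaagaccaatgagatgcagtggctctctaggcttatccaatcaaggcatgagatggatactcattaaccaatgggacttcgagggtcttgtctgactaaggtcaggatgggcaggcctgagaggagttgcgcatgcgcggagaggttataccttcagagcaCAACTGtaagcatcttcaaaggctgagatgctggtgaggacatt
Tex101: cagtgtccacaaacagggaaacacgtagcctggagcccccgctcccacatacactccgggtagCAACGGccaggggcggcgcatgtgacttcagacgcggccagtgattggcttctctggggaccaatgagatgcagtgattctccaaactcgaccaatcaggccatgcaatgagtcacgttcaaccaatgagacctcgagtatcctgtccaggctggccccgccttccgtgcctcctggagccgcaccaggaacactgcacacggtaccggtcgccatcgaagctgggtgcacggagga
Ldhc: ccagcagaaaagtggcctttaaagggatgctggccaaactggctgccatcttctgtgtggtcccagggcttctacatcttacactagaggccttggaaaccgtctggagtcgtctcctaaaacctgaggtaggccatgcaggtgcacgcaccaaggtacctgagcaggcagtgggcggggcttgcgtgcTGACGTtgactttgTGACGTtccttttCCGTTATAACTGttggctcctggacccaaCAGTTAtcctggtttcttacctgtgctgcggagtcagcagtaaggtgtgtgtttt
Akap4: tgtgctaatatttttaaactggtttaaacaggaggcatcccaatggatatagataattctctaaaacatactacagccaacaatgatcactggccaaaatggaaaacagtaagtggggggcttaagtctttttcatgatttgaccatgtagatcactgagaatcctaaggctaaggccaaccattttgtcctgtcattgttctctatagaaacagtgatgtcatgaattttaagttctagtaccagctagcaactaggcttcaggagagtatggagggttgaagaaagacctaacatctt
Tsga8: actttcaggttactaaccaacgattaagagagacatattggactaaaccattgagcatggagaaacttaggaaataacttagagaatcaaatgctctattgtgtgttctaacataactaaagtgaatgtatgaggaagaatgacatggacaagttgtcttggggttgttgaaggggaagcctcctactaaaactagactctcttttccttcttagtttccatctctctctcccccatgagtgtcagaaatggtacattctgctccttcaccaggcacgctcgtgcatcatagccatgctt

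The MYB letters were found once or more in the windows of Hspa2 (2 matches), Piwil1 (2), Pou5f2 (1), Cks2 (1), Ube2t (2), Lypd10 (5), Tex101 (1) and Ldhc (3, beside 2 matches to TGACGT). No match lay in the windows shown for Ccna1, Akap4 and Tsga8. The windows shown are examples and do not represent the gene sets. Among other genes of the leading 15, Mphosph8, Arl6ip1, Pcbp1 and Rnf6 had no match in any window. In contrast, 4930581F22Rik, Gm21269, Tchp and Mgll had matches, and Mllt10 had a match in some of its windows but not in all. Of the 50 genes highest in spermatocytes over both spermatid groups, 38 had a window in the table and 25 of these (65.8%) held MYB letters. The share was 31.1% of all 27025 genes in the table and 33.8% of those at 20 CPM or more in spermatocytes. Among 50 genes with the lowest spermatocyte level relative to the round spermatid group, a set chosen after the data were seen, it was 7 of 37 (18.9%). This set had to reach 50 CPM in the round spermatid group of both libraries, and the spermatocyte-high set had to reach it in spermatocytes. Each set thus passed through the group where it is high, so no result is read from the contrast between these sets. Counted per window, since some genes have several, the shares were 58.0%, 28.3%, 29.8% and 16.7% in the same order. The share per gene was 47.7% among 107 X-linked genes with a window, at 20 CPM or more in spermatocytes or the round spermatid group. They come from 130 such genes, of which 117 passed through the round spermatid group alone. TGACGT was in 5.26% of the spermatocyte-high genes, 8.37% of all genes, 15.1% of genes at 20 CPM or more in spermatocytes and 8.11% of the lowest set. A match is a description of letters and not a binding site.

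Chromatin of cKIT+ spermatogonia, an earlier germ-cell stage, was available from other libraries as peak lists: 2 control and 3 cKO for ATAC-seq, and 2 control and 3 cKO for H3K27me3. Of the 38 spermatocyte-high genes with a window, 60.5% had an ATAC peak over a window in every library, against 23.7% of all genes and 62.8% of genes at 20 CPM or more in spermatocytes. Of the 37 genes lowest against round spermatids none did, but the opposed 50 CPM limits of these sets apply here too. An H3K27me3 region in any library lay over 13.2% of the spermatocyte-high genes, 5.89% of genes at 20 CPM or more and 15.8% of all genes. It lay over 16.2% of the 37 genes lowest against round spermatids, so this share did not set the spermatocyte-high genes apart from them. The Cks2, Hspa2 and Ube2t windows had ATAC peaks in all 5 libraries, whereas the Lypd10 and Ldhc windows had none. The Ccna1 window overlapped an H3K27me3 region in 2 of 2 control and 0 of 3 cKO libraries, and the Piwil1 window in 1 of 2 and 2 of 3. Both windows had an ATAC peak in 0 of 2 control and 1 of 3 cKO libraries. How many windows had an H3K27me3 region in control libraries alone was not counted. No difference between genotypes is therefore read from these windows. These lists come from another cell type and were compared by presence alone.

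Gene lists ordered by role were next set against the round spermatid group, with 10 CPM added to both sides. Of 7554 genes at 20 CPM or more in either group, 22.6% were at least 2-fold higher in spermatocytes in both libraries and 22.9% were at least 2-fold lower. The median log2 ratio over all of them was 0.33 in the control and 0.29 in the cKO. Against the elongating group, 56.3% of 7082 genes were at least 2-fold higher and 18.3% lower, so the round spermatid group was the closer reference. Genes outside the rule were compared as a description, since the rule split these same cells. A gene could pass 20 CPM through spermatocytes alone, where it is high, so counts of higher genes in the lists partly reflect this limit.

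Synaptonemal complex and axis genes were mixed. Of 12 at 20 CPM or more among 15 listed, 5 were at least 2-fold higher in spermatocytes and 2 lower, with a median log2 ratio of 0.72 and 0.65. Sycp1, which forms the transverse filaments, had 789 and 793 CPM against 174 and 133 in the round spermatid group. Hormad1, which marks unsynapsed axes, had 304 and 259 against 40.5 and 29.2. Syce2, a central element gene, went the other way, with 86.3 and 86.9 against 245 and 194, and so did the cohesin gene Rec8, with 6.71 and 8.53 against 53.8 and 65.8.

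Recombination genes passed 20 CPM in 8 of 18 listed. Of the 8, all of which passed in spermatocytes, 4 were at least 2-fold higher than in the round spermatid group and 1 lower. Some, such as Mlh3, passed in spermatocytes alone, so the count of 4 partly reflects the limit. Mlh3, a gene of crossover resolution, had 90.9 and 67.9 CPM against 6.99 and 4.38, and Cntd1, which is needed for crossover maturation, had 156 and 162 against 32.1 and 38.1. Spo11, the gene of the break-forming enzyme, stood at 103 and 99.1. Tex15, a germ-cell gene with roles in break repair and transposon silencing, was the exception, at 41.3 and 24.97 against 146 and 101.

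Of 16 listed genes for sex-body silencing and DNA damage signalling, 8 passed 20 CPM, all of them in spermatocytes. Of these 8, 7 were at least 2-fold higher than in the round spermatid group and 1 was lower. Some, such as Topbp1, passed in spermatocytes alone, so the count of 7 partly reflects the limit. DNA damage genes under the limit went both ways. Brca1 had 7.38 and 5.90 CPM against 14.3 and 10.3, and Atrip had 19.4 and 13.4 against 5.82 and 3.11. Atr, the kinase that spreads silencing over the sex chromosomes, had 323 and 223 CPM against 45.8 and 26.2. Mdc1, the adaptor that carries the signal into chromatin loops, had 151 and 103 against 24.6 and 14.7. Topbp1, an activator of ATR, had 75.4 and 61.3 against 13.3 and 6.90. Usp7, a deubiquitinase, was the lower one, at 138 and 119.6 against 297 and 259.

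Of 17 piRNA pathway genes at 20 CPM or more, of 18 listed, 9 were at least 2-fold higher in spermatocytes and none was 2-fold lower. Tdrd1, a scaffold that binds PIWI proteins, had 216 and 154 CPM against 22.5 and 19.1. Piwil2 stood at 131 and 104 against 15.4 and 13.4, whereas Mael, needed for transposon silencing, was under 2-fold apart at 640.4 and 698 against 429 and 497.

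Of 16 cell-cycle and division genes at 20 CPM or more, 10 were at least 2-fold higher in spermatocytes and none 2-fold lower in both libraries. Aurka, a spindle kinase gene, had 209 and 230.0 CPM against 63.5 and 72.7, and Nek2, a centrosome kinase gene, had 252 and 167 against 40.0 and 26.9. Cdk1, the kinase that drives entry into division, had 85.3 and 105 against 12.9 and 15.4. Its cyclin gene Ccnb1 had 78.2 and 101 against 89.9 and 120.3, and so was not higher in spermatocytes.

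Testis histones split by variant. The linker histone gene Hist1h1t had 272 and 154 CPM against 19.0 and 15.3 in the round spermatid group, and H2afx, whose product is phosphorylated at breaks and on the sex body, had 114 and 127 against 19.9 and 24.9. The spermatid linker histones Hils1, at 127 and 109 against 1459.7 and 1429, and H1fnt, at 113 and 89.5 against 735 and 595, were lower. In near-empty barcodes Hils1 stood at 811 and 659.8, above its level in spermatocytes, and the part of free RNA in the spermatocyte value was not tested.

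The remaining lists were mixed, apart from late spermatid genes, which were low. Of 12 transcription regulators 1 was at least 2-fold higher and 2 were lower in spermatocytes. The higher one was Mybl1, at 126 and 90.8 CPM against 20.1 and 15.5, and Crem, the activator of spermatid genes, was one of the lower, at 199 and 215 against 447 and 494. Energy metabolism had 2 higher and 6 lower of 15, with Slc25a31, a mitochondrial ADP/ATP carrier gene, at 156 and 159 against 33.9 and 34.3 and Gapdhs, the sperm glycolytic enzyme gene, at 219 and 208 against 965 and 840.0. Chaperones had 4 higher and 2 lower of 14, RNA-binding genes 5 higher and 1 lower of 14, and sperm and acrosome genes 2 higher and 4 lower of 15. The 5 H3K27 genes at 20 CPM or more, of 10 listed, had 2 higher and none lower. Axoneme genes had 5 higher and 2 lower of 16. Dnah8, a sperm tail dynein gene, had 1469 and 947 against 236 and 159.7, and Tekt2, a tektin gene, had 191 and 204 against 872 and 948. Late spermatid genes had none higher and 10 lower of 12. They summed to 4113 and 3695 CPM in spermatocytes, 15421 and 12377 in the round spermatid group and 14946 and 12462 in near-empty barcodes.

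**Figure D1:**
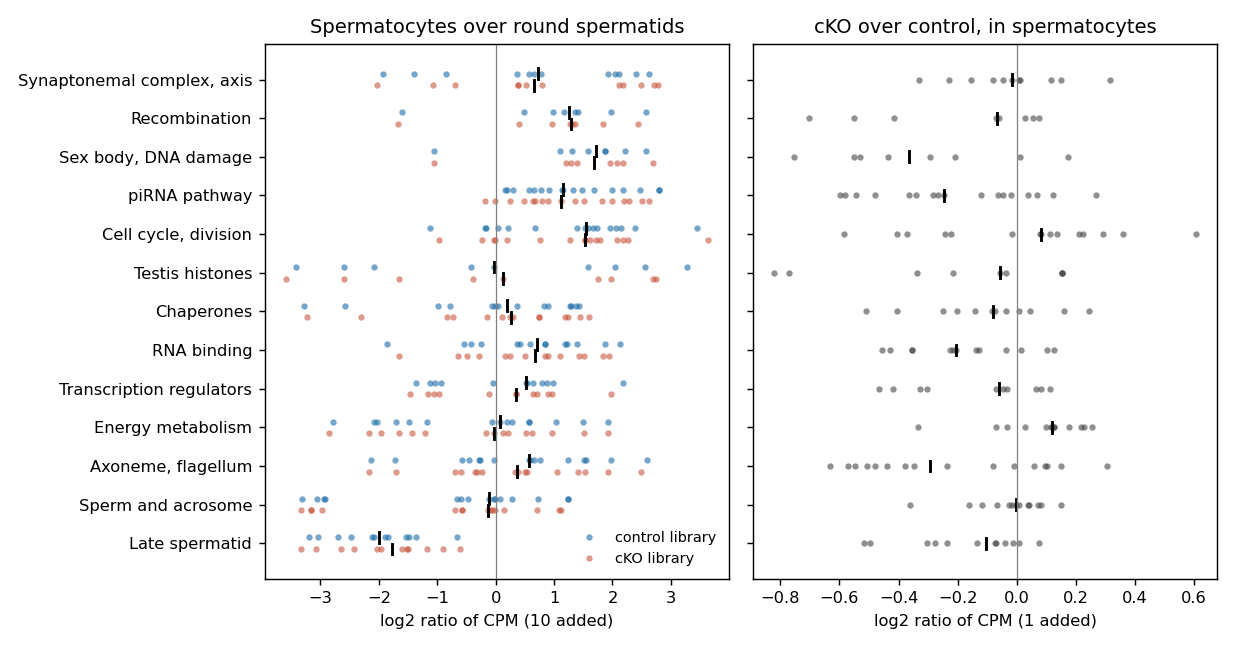
Each point is a gene of the named list at 20 CPM or more, and black ticks are list medians. The left panel gives the log2 ratio of spermatocytes over the round spermatid group in each library, and the right panel the log2 ratio of cKO over control within spermatocytes: 7 of 8 sex-body genes sit right of 0 on the left (medians 1.73 in the control and 1.68 in the cKO) and 6 of 8 left of 0 on the right (median -0.37), and late spermatid genes have the lowest medians on the left (-1.997 and -1.78).

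The sex chromosomes were low in spermatocytes of both libraries. X-linked genes gave 0.216% of spermatocyte UMIs in the control (95% exact binomial interval 0.214 to 0.217) and 0.201% in the cKO (0.199 to 0.202). The same share was 1.24% and 1.16% in the round spermatid group, 1.36% and 1.31% in the elongating group, and 0.995% and 0.971% in near-empty barcodes. The share in spermatocytes relative to round spermatids was 0.174 in the control and 0.173 in the cKO for the X, and 0.643 to 1.18 and 0.726 to 1.15 for the autosomes. Chromosome 16, which carries the protamine genes Prm1 and Prm2, was the lowest autosome in both. These genes and Tnp2 on the same chromosome belong to the rule and were kept in the shares, so this value may in part describe the rule. The median autosome stood at 1.01 in the control and 0.995 in the cKO. Per cell, the median X share was 0.173% and 0.136% in spermatocytes against 1.22% and 1.10% in round spermatids. In spermatocytes the upper 5% of cells lay above 1.86% and 1.503%, so a minority of members had an X share like that of spermatids. Without the low-scoring members the summed share was 0.186% and 0.172%.

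**Figure D2:**
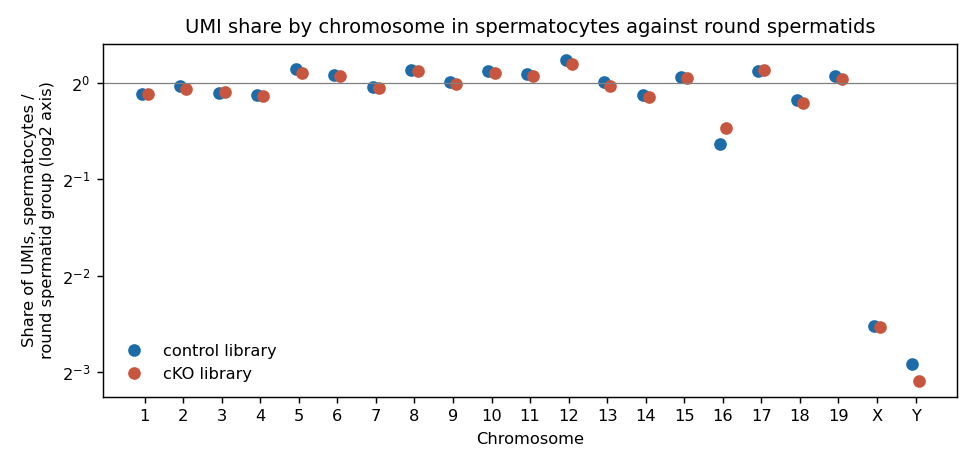
The y axis, on a log2 scale, gives each chromosome's share of UMIs in spermatocytes divided by its share in the round spermatid group, and each point is a library. The autosomes sit between 0.643 and 1.18 in both libraries, X lies at 0.174 and 0.173, and Y at 0.133 and 0.117.

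Of 130 X-linked genes at 20 CPM or more in spermatocytes or round spermatids, 13 reached it in spermatocytes and 117 passed through the round spermatid group alone, where they are high, so no share of lower genes is read from the 130. On the autosomes 6033 of 7210 reached 20 CPM in spermatocytes. Akap4, a fibrous sheath anchoring protein gene and the highest of them in the control, had 135 and 94.0 CPM, against 619 and 416 in round spermatids and 397 and 307 in near-empty barcodes. Tsga8, the highest in the cKO, had 114 and 119.7 CPM against 1196 and 1287, and 555 and 454 in near-empty barcodes. Ndufa1, a subunit gene of respiratory complex I, was the only one of the 13 with a higher level in spermatocytes, at 51.5 and 61.4 against 23.3 and 20.5. Its level in near-empty barcodes was 42.6 and 50.3, close to that in spermatocytes. The part of free RNA in these 13 values was not tested.

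Autosomal copies of X-linked housekeeping genes, which can act while the X is silent, were detected at the higher level in spermatocytes in every pair examined. Pgk2, the autosomal phosphoglycerate kinase, had 204 and 218 CPM in spermatocytes and X-linked Pgk1 had 5.09 and 4.01. Pdha2 of pyruvate dehydrogenase had 268 and 262, and Pdha1 had 0.362 and 0.244. The ribosomal protein gene Rpl10l had 171 and 182, and Rpl10 had 6.77 and 7.66. For the adenine nucleotide carriers, Slc25a31 had 156 and 159 and Slc25a5 had 2.82 and 4.14. The glycerol kinase Gk2 had 391 and 427, and Gk had 0.324 and 0.190. In the other 5 pairs (Cetn1 with Cetn2, Rbmxl2 with Rbmx, Cstf2t with Cstf2, Utp14b with Utp14a and Ubl4b with Ubl4a) the autosomal copy was also the higher. Each gene of these pairs was counted by the 3′ ends of its transcripts. How well reads were told apart between similar copies was not tested, so ratios between different genes are approximate. The smallest ratio was that of Cstf2t, at 31.7 and 25.5 CPM, over Cstf2, at 5.74 and 4.90. The higher autosomal level was not particular to spermatocytes. In the round spermatid group the autosomal copy was also the higher in all pairs except Cstf2t with Cstf2 and Utp14b with Utp14a. Pgk2 stood at 587 and 606 CPM there against 8.45 and 7.18 for Pgk1. Cstf2t stood at 4.51 and 3.88 there against 43.2 and 37.0 for Cstf2. Ubl4b had 114 and 110 CPM in spermatocytes but 531 and 430 in round spermatids and 1829 and 1888 in the elongating group. By contrast, Pdha2, Rpl10l, Utp14b, Cetn1, Cstf2t and Slc25a31 were higher in spermatocytes than in both spermatid groups. The part of free RNA in the spermatocyte values of these pairs was not tested.

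Spermatocytes also varied among themselves. Those of both libraries together were placed in 4 bins of equal size by the mean z-score of Pgk2, Clgn, Acr, Crisp2, Meig1 and Spag6l minus that of Sycp1, Sycp2, Sycp3, Hormad1, Smc1b and Syce2, so that bin 1 is high in axis genes and bin 4 in sperm genes. Bins 1 to 4 held 25.2%, 25.2%, 26.7% and 23.0% of control spermatocytes and 24.8%, 24.8%, 22.9% and 27.5% of cKO spermatocytes. Median UMIs per cell were 7826, 19219, 26075 and 13073 in the control and 7920.5, 14026.5, 21512 and 16185 in the cKO. Bin 1 held most of the low-scoring members, 22.0% of its control and 19.7% of its cKO cells, against 2.36% and 1.57% in bin 4. Sertoli markers summed to 233 and 223 CPM in bin 1, 110 and 225 in bin 2, 66.1 and 59.9 in bin 3 and 29.1 and 40.2 in bin 4, and their part in the bins' differences was not tested.

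Genes that did not set the order showed early, middle and late patterns. Meiob, which acts in break repair, had 140.1 CPM in bin 1 of the control and 11.9 in bin 2, with 127 and 18.2 in the cKO. Between the same bins, Dmc1 went from 46.2 to 3.03 CPM in the control and from 28.3 to 2.93 in the cKO. Tex101 declined in smaller steps, from 1676 in bin 1 to 113 in bin 4 of the control and from 2008 to 176 in the cKO. Of 8 recombination genes, 6 were highest in bin 1 and 2 in bin 2, in both libraries. Bin 1 was the commonest peak over all 6129 genes at 20 CPM or more that did not set the order, with 40.7% of them in the control and 40.1% in the cKO.

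Of 8 sex-body genes, 7 were highest in bin 1. So were all 5 H3K27 genes, 9 of 11 chaperones in the control and 8 in the cKO, and 10 of 17 piRNA pathway genes, so a peak in bin 1 was not particular to recombination or sex-body genes. Mdc1 declined over the bins from 338 to 70.0 CPM in the control and from 238 to 50.0 in the cKO. Hist1h1t was level over bins 1 and 2 of the cKO, at 287 and 279.6, and 431 and 474 in the control, then declined to 46.7 and 57.3 in bin 4. Mybl1 had 181, 139.9, 113 and 101 CPM over bins 1 to 4 in the control and 135, 107, 80.0 and 71.9 in the cKO. Each of these bins was lower in the cKO for Mybl1, Mdc1 and Hist1h1t, genes that were also lower in the cKO over all spermatocytes. How many of the 6129 genes were lower in every bin was not counted.

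Some division genes were highest in the last bin. Aurka went from 78.1 CPM in bin 1 to 364 in bin 4 of the control and from 83.8 to 369 in the cKO. Plk1, the polo kinase gene, had 16.9 in bin 2 and 156 in bin 4 of the control, and 19.7 and 134 in the cKO. Ccnb1 had 23.4 and 188 in these bins of the control and 34.5 and 196 of the cKO. Of 15 division genes, 10 were highest in bin 4 of the control and 9 in bin 4 of the cKO, against 30.7% and 32.8% of all 6129 genes. Bin 1 was the peak of 3 in the control and 5 in the cKO. Ldhc had 3348, 7079.5, 8726 and 8549 CPM over bins 1 to 4 of the control and 3909.9, 7320.1, 9358 and 9588 in the cKO.

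The genes of the rule marked different bins. Piwil1 was highest in bin 2, at 970.4 CPM in the control and 1109.7 in the cKO. Pou5f2 was highest in bin 3, at 238 and 219. Ccna1 was highest in bin 4, at 307 and 310.3. Hspa2 varied least, between 1535 and 1928 in the control and between 1351 and 1760.2 in the cKO. The X-linked share was 0.433%, 0.200%, 0.138% and 0.229% over bins 1 to 4 of the control and 0.319%, 0.206%, 0.155% and 0.188% of the cKO. It was lowest in bin 3 of both libraries and highest in bin 1, where the low-scoring members were most frequent.

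**Figure D3:**
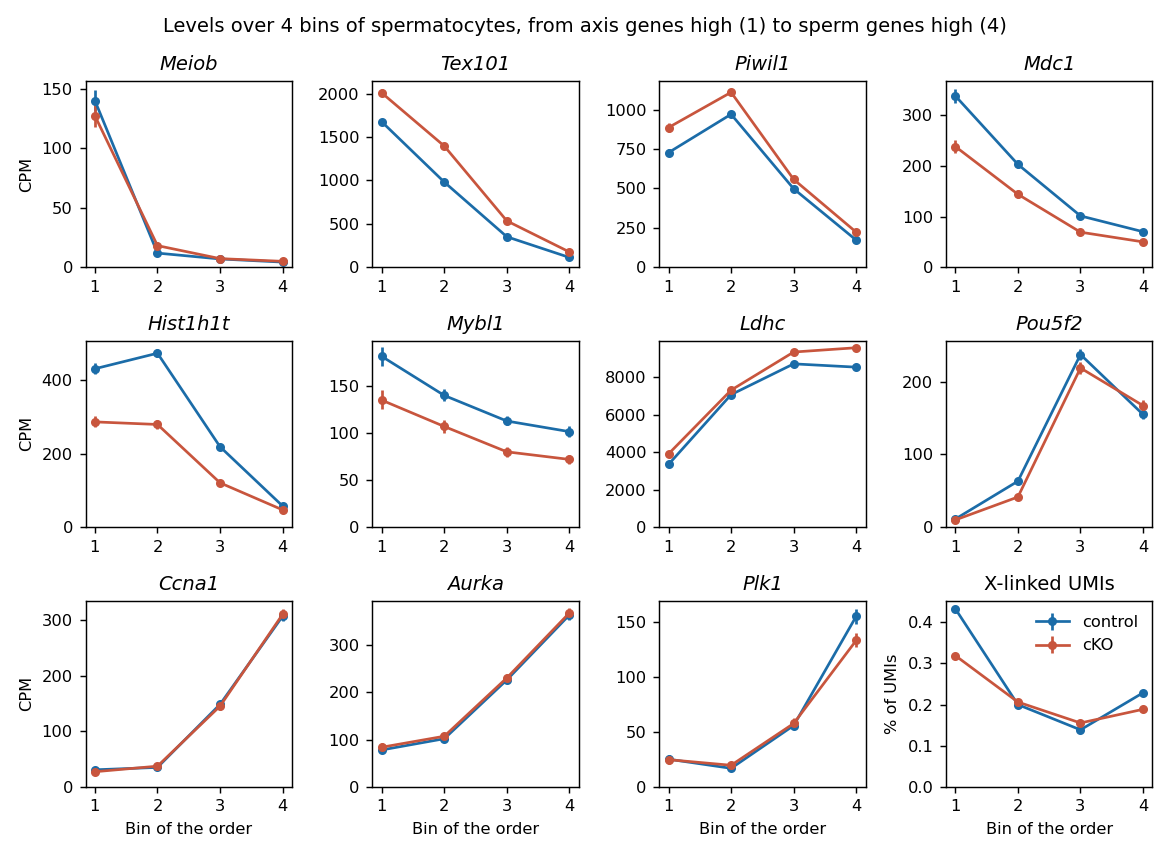
Panels give the level in each of the 4 bins, in CPM for genes and in percent of UMIs for the X-linked share, with points for the libraries and bars for 95% counting intervals, which are mostly smaller than the points. Meiob and Tex101 are highest in bin 1, Piwil1 in bin 2, Pou5f2 in bin 3 and Ccna1, Aurka and Plk1 in bin 4 of both libraries, and the cKO line lies below the control line in every bin for Mdc1, Hist1h1t and Mybl1.

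The comparison of cKO with control spermatocytes asks what loss of Kdm6a in germ cells changes at this stage. Kdm6a itself had 80 UMIs (1.53 CPM) in control spermatocytes and 12 UMIs (0.325 CPM) in the cKO. The log2 ratio of these shares was -2.23 (95% interval -3.24 to -1.35). Of the control UMIs, 58 came from bin 1, and without bin 1 the log2 ratio was -0.94 (-2.32 to 0.28), an interval that holds 0. It was -1.54 at 5000 UMIs or more and -1.56 without the low-scoring members. Kdm6a was low in the other groups too, with 79 UMIs in the control and 17 in the cKO for round spermatids and 53 and 16 for the elongating group. In near-empty barcodes, which also hold RNA of somatic cells, it stood at 4.31 CPM in the control and 6.88 in the cKO. The library kit counts 3′ ends, and the labels do not say which exons are removed, so these values do not check the deletion. Uty, the Y-linked relative, had 0.896 and 1.14 CPM, and Kdm6b, the other H3K27 demethylase gene, had 6.22 and 6.09. The PRC2 methyltransferase gene Ezh2 had 177 and 168, and its partner gene Suz12 60.9 and 47.0.

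Few spermatocyte genes were 2-fold apart between the libraries. Of 6141 genes at 20 CPM or more in either library, 1 (0.0163%) was at least 2-fold higher in the cKO and 7 (0.114%) at least 2-fold lower, with 1 CPM added to both. At 1.5-fold, a limit added after the data were seen, 6 (0.0977%) were higher and 114 (1.86%) lower. The median log2 ratio over all 6141 was -0.010. How many genes were 2-fold lower depended on the setting: 19 with each cell weighted equally, 23 with each cell thinned to 3000 UMIs and 1 with 10 CPM added.

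The gene 2-fold higher was Map4k1, a kinase gene known from immune cells, at 31.5 CPM in the control and 87.1 in the cKO, a log2 ratio of 1.44 (95% interval of the ratio without the added CPM 1.38 to 1.55). It was also higher in the cKO in the round spermatid group (1.37) and the elongating group (1.04), and in near-empty barcodes, at 51.9 and 108 CPM. Next came BC037704 (24.6 and 45.9 CPM), Sparc (18.0 and 29.0), Fam98c (340.0 and 527), Aurkc, the germ-cell aurora kinase (27.7 and 42.7), Nkpd1 (13.3 and 20.5), Gml2 (57.7 and 86.4) and 1110035H17Rik (23.5 and 35.3). Sparc was concentrated in the low-scoring members, with Sertoli markers at 90.3 and 112 CPM over all members, and its source was not tested. Gml2 was lower in round spermatids, at 8.33 and 9.97 CPM, with log2 ratios of cKO over control of 0.23 there and -0.0082 in the elongating group. The others were also higher in the cKO in round spermatids. Log2 ratios there were 0.95 for BC037704, 0.77 for Fam98c, 0.67 for Nkpd1, 0.64 for 1110035H17Rik, 0.59 for Aurkc and 0.58 for Sparc. In the elongating group these ran from 0.058 for Aurkc to 0.56 for Sparc.

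The gene furthest lower was Clasrp, which encodes a splicing regulator, at 130.1 CPM in the control and 38.2 in the cKO (-1.74, interval of the ratio -1.85 to -1.68). Its log2 ratio was -1.90 in round spermatids and -1.31 in the elongating group, and it had 161 and 50.0 CPM in near-empty barcodes. The others were Gm11639 (36.1 and 15.2 CPM), Pom121l2, a relative of a nuclear pore gene (64.3 and 28.1), Gm8251 (55.2 and 24.2), Fam177a (78.3 and 34.7), Moap1, which encodes a partner of BAX (29.7 and 13.2), and the mitochondrial gene mt-Nd6 (30.0 and 14.3). Dynlt1b, one of several near-identical dynein light chain copies and so uncertain, followed at 55.5 and 28.4. The log2 ratio of Pom121l2 was -1.17 in spermatocytes, -0.67 in round spermatids and -0.033 in the elongating group. The others were also lower in the cKO in both spermatid groups. In round spermatids and the elongating group, log2 ratios were -0.66 and -1.12 for Gm11639 and -1.32 and -0.88 for Gm8251. They were -1.07 and -1.30 for Fam177a, -0.89 and -0.72 for Moap1 and -1.79 and -1.58 for mt-Nd6. Those of Dynlt1b were -0.81 and -0.89. In near-empty barcodes mt-Nd6 stood at 296 and 307 CPM.

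Several of these genes lie close together on chromosome 7 (mm10). Clasrp spans chr7:19581038-19604517 and Nkpd1, which was higher, spans chr7:19517491-19525057. Map4k1 spans chr7:28982050-29003279 and Fam98c spans chr7:29152510-29157104. With Aurkc at chr7:6995347-7003091, 4 of the 8 named higher genes and 1 of the 8 lower were on this chromosome. Of the higher ones 7 had a chromosome in the table, and 1110035H17Rik did not. Chromosome 7 held 7.60% of the 6141 genes. With 1 library per genotype, other differences between the mice and the loss of Kdm6a cannot be told apart.

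**Figure D4:**
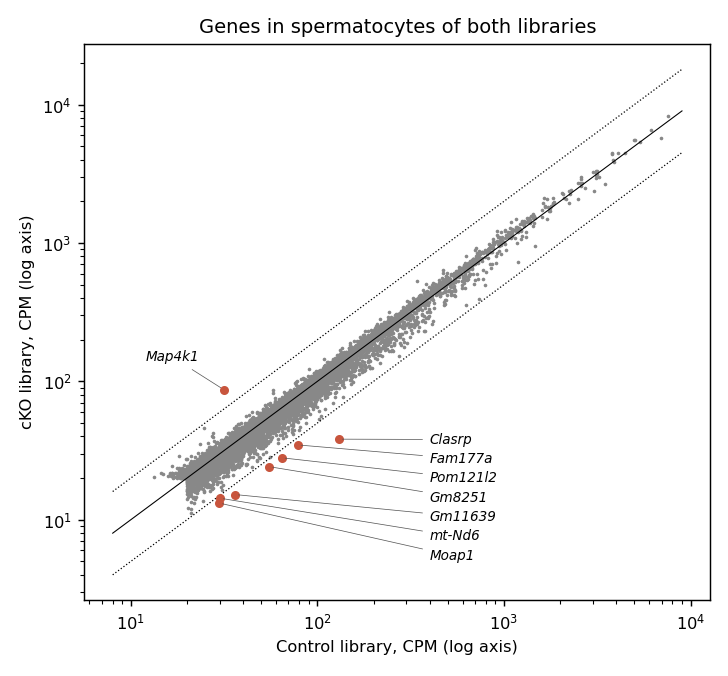
Each grey point is a gene at 20 CPM or more in spermatocytes of either library, with the control level on the x axis and the cKO level on the y axis, both log axes in CPM. The solid line marks equal levels, the dotted lines a 2-fold difference, and the labelled red points are the 8 genes 2-fold apart: Map4k1 above and Clasrp, Gm11639, Pom121l2, Gm8251, Fam177a, Moap1 and mt-Nd6 below.

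None of the lists by role had a member 2-fold apart between the libraries. Over all 6141 genes, 3188 had a log2 ratio below 0 and 2953 had one above 0. Sex-body genes had the lowest median log2 ratio, -0.37 over 8 genes of which 6 were below 0. Setdb1, an H3K9 methyltransferase gene, was the lowest of them at 61.4 CPM in the control and 36.0 in the cKO (-0.75), and the highest was the corepressor gene Trim28, at 253 and 285 (0.17). Axoneme genes had a median of -0.29 (11 of 16 below 0), from -0.63 for Dnah8 to 0.31 for Tekt4. The piRNA pathway had a median of -0.25 (13 of 17 below 0), from -0.60 for Tdrd7 to 0.27 for Gpat2, and RNA-binding genes -0.21 (10 of 13 below 0), from -0.46 for Paip1 to 0.12 for Dazl. Energy metabolism had the highest median, 0.12, with 10 of 13 above 0, and was led by Cox6b2, a testis cytochrome oxidase subunit gene, at 1077 and 1285 CPM.

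Medians near 0 were found for synaptonemal complex genes (-0.016 over 11 genes), recombination (-0.066 over 8), transcription regulators (-0.059 over 10), chaperones (-0.079 over 12), testis histones (-0.058 over 9), sperm and acrosome genes (-0.0020 over 13) and division genes (0.081 over 15). H3K27 genes had a median of -0.10, from -0.37 for Suz12 to -0.072 for Ezh2. All 5 that passed were below 0, beside 3188 of all 6141 genes. Within these lists single genes lay further out. Hist1h1t had 272 CPM in the control and 154 in the cKO (-0.82), and Hist1h2aa had 80.9 and 47.0 (-0.77). Tex15 had 41.3 and 24.97 (-0.70), Mybl1 126 and 90.8 (-0.47) and Nek2 252 and 167 (-0.59). The late spermatid list had a median of -0.10 over 12 genes, and its summed level in spermatocytes was below that in near-empty barcodes.

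Differences between the libraries moved with the span of the gene on the genome. A span was known for 5972 (97.2%) of the 6141 genes, and these were split into 5 classes of equal size, a split chosen after the data were seen. From the shortest to the longest class the median log2 ratio in spermatocytes was 0.10, 0.065, -0.0019, -0.11 and -0.22. In the round spermatid group it was 0.12, 0.088, 0.020, -0.10 and -0.21, and in the elongating group -0.0059, -0.067, -0.16, -0.25 and -0.33. Near-empty barcodes spread less, from -0.020 to -0.073. Of genes 1.5-fold lower in cKO spermatocytes, 4, 8, 13, 31 and 52 lay in classes 1 to 5.

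Of 13 lists with genes on both sides of the split between classes 3 and 4, the longer genes had the lower median in 10 and the higher in 3 (transcription regulators, H3K27 genes and late spermatid genes). Among axoneme genes, the 10 in classes 4 and 5 had a median log2 ratio of -0.46 and the 6 shorter ones 0.098. Among piRNA pathway genes the medians were -0.28 for 12 longer and 0.039 for 5 shorter genes, and among sex-body genes -0.44 for 5 and 0.0094 for 3. Energy metabolism genes, with a median span of 2.35 kb, had 11 of 13 among the shorter. Hist1h1t and the other histones were all in the shorter classes. The part of gene span in the list medians was not tested. The round spermatid medians ran beside those of spermatocytes in every class.

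**Figure D5:**
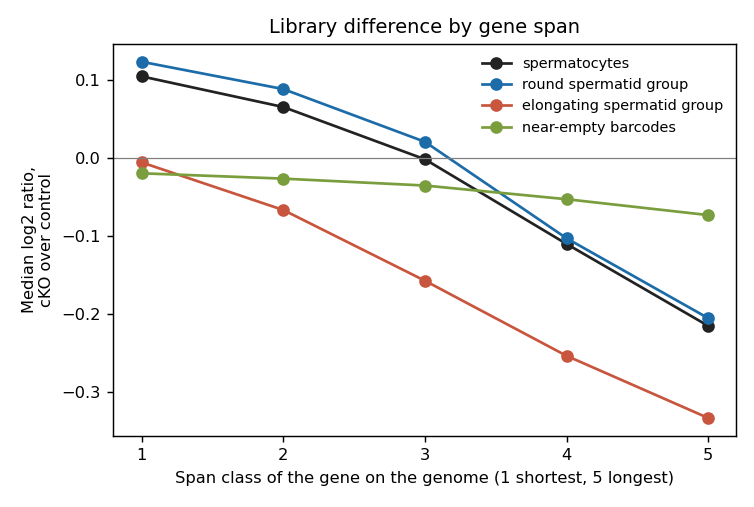
The x axis gives 5 classes of genes by span and the y axis the median log2 ratio of cKO over control, with a line for each group of cells and one for near-empty barcodes. The spermatocyte line runs from 0.10 in class 1 to -0.22 in class 5, next to the round spermatid line from 0.12 to -0.21.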

How the data were processed

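Droplet libraries of whole testis, 1 control and 1 cKO, were analysed. The deposited matrices hold raw UMI counts, near-empty barcodes included. The file headers name Cell Ranger 4, and the submitters' processing notes name Cell Ranger, Seurat 4.1.0 and mm10. Peak files were used for positions only. Per the submitters' processing notes MACS2 and SEACR were among the tools used by the authors. The authors' ATAC files give a fold enrichment ratio per peak and the authors' H3K27me3 files a signal per region, and neither value was used. The bulk RNA files and the IgG list were not used here.

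Cells were filtered and assigned with Python 3.11.15, NumPy 2.4.6, pandas 2.3.3 and SciPy 1.17.1, as the report describes. Of barcodes with 3000 UMIs, 11181 control and 8444 cKO passed the mitochondrial limit, and the gate then left out 391 and 236. UMIs were summed per library and group and scaled to CPM. Poisson and binomial intervals are exact, and ratio intervals are conditional binomial. With 1 library per genotype no test was made. The fold rule and intervals were run on simulated libraries drawn from a pooled profile with counting error alone. These hold no variation between cells, animals or libraries, so they check the calculation only. Doublets were not called or removed, and the tenth of members with the most UMIs was left out as an alternative. Promoter windows overlapped a peak by at least 1 bp.

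Named genes were the 12 most abundant (mitochondrial and rule genes left out), the 15 highest over both spermatid groups in both libraries at 50 CPM or more, and the 8 furthest apart in each direction at 20 CPM or more with an interval without 1. Genes of the lists were named as the 2 highest, the 2 lowest, the 2 of largest ratio or for their role. Members and lists were chosen with earlier results of these data known. Of the listed symbols, Six6os1, Speedya and Meiosin were not matched, and older histone symbols stood for newer ones. Symbols were matched to the RefSeq table of GRCm38.p6 for chromosomes, spans and promoters.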

Additional observations from a re-analysis of the deposited data

How the results depend on the processing

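No paired analysis was possible because there was 1 library per genotype and the labels give no replicate numbers. The share of cells that were spermatocytes was 29.96% in the control and 30.25% in the cKO at 5000 UMIs, 24.995% and 25.99% with a spermatocyte score above 0, and 24.1% and 25.5% with a lead of 0.25. The X-linked share was 0.259% and 0.232% at 2000 UMIs, 0.175% and 0.169% at 5000 UMIs, 0.2045% and 0.187% at a mitochondrial limit of 10%, 0.259% and 0.235% without the gate, 0.186% and 0.172% with a score above 0, 0.175% and 0.1637% with a lead of 0.25, and 0.244% and 0.223% without the tenth of members with the most UMIs. The count of genes 2-fold lower in the cKO was 7, and it was 19 with equal cell weights, 1 with 10 CPM added, 23 with thinned cells, 4 at 50 CPM or more and 16 at 1 UMI or more. The log2 ratio of Kdm6a was -2.23, and -0.94 without bin 1, an alternative added after the data were seen. The others added then were bins weighted equally and the 1.5-fold limit. List medians gave 224 values under the alternatives, of which 9 moved by over 0.1 and 9 changed sign, all with a main value within 0.026 of 0. Named genes gave 645 values, of which 60 moved by over 0.1 and 18 changed sign, with 7 values falling under a 2-fold difference and none reaching one. Genes under about 20 CPM in spermatocytes, Kdm6a included, are limited by counting depth.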
